A study of Mus musculus with 36 samples.

Results

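The region described here is the stretch of mouse chromosome 10 that holds Tet1, with 10 Mb to either side of the gene (mm10, chr10:52804570-72908996). All CpGs and all 1 kb tiles of this interval that the methylation tables list were taken, by position alone. They come to 34203 of the 3493603 autosomal CpGs listed in any library, and to 5671 of 569727 tiles. Of the CpGs, 8000 of 921363 were read at least 5 times in each of the 35 embryos compared. The interval holds 325 annotated genes, of which 118 code for proteins, and Tet1 itself lies on the minus strand at chr10:62804570-62908996.

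The study examined DNA methylation in the brains of embryos that lack TET1 and whose dams were fed different amounts of folic acid (FA). All diets of these dams also held the antibiotic succinyl sulfathiazole, the control diet of 3 ppm FA included. Single E11.5 brains were profiled by oxidative bisulfite reduced representation bisulfite sequencing (RRBS), in which MspI (cuts at CCGG) and TaqI (cuts at TCGA) make the fragments and only 5-methylcytosine reads as methylated. All embryos were of the 129S6.Cg Tet1 tm1Koh strain, from Tet1 heterozygous dams, and carried 0, 1 or 2 copies of the same targeted allele (WT, HET and KO). By their titles there were 3 WT, 5 HET and 6 KO embryos on 30 ppm FA, 4, 3 and 5 on 3 ppm, and 2, 3 and 5 on 0.1 ppm. The titles also name both sexes and a phenotype, which is normal, neural tube defect (NTD) or inHB. The study's sample list gives inHB as brain malformation. NTD was given to KO embryos alone, and inHB to some embryos of each genotype. KO against WT is thus partly malformed against normal. The comparisons took no account of sex or phenotype, and their part was not tested. HET 0.1 ppm replicate 2, the shallowest library, was left out of all comparisons, so that 2 HET embryos remained on this diet. The allele was first kept in a C57BL/6 (B6) congenic line and was later moved by backcrossing into 129S6. Each genotype is thus 1 allele with 1 history of breeding, and embryos of a litter share a dam. The mm10 genome is that of the B6 strain.

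TET1 is a dioxygenase that oxidises 5-methylcytosine and so opens the way to its removal, and its loss is known to raise methylation at many CpGs. In a congenic strain the chromosome around a selected allele can stay that of the donor strain, because alleles close to each other are inherited together. This stretch is often called passenger DNA. In bisulfite data a thymine in the genome reads as an unmethylated cytosine, and a strain that gains or lacks a cut site yields other RRBS fragments, so inherited sequence and methylation cannot be told apart from these tables alone.

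The CpGs at which KO and WT stood furthest apart are shown first, since the results turn on them. They are the 9 CpGs of the interval whose mean level on the 3 ppm diet differed by 70 percentage points or more, here named large-step CpGs. The sequences are the plus strand of the mm10 reference (GRCm38.p6), and the capitals mark the CpG measured.
Tet1, intron, chr10:62884005-62884034: atccttccagctgcCGccggtgctaaagtg
Zfp365, UTR, chr10:67888752-67888781: gtccaaaaggacaaCGctgttggactctgg
Rtkn2, intron, chr10:68002642-68002671: tttttcaattaagaCGtataattcacttca
intergenic, nearest start site Arid5b, chr10:68091382-68091411: aatccgtcggtctgCGtcacggatgcctca
intergenic, nearest start site Rhobtb1, chr10:68962795-68962824: tctcaaccggccctCGgaggcacacgaagg
Rhobtb1, intron, chr10:69269328-69269357: gttaaactgctgggCGgtggtggtggcagc
Ank3, intron, chr10:69471310-69471339: atttcatttcttttCGtgttttgagcaggt
Ank3, intron, chr10:69879574-69879603: gggagtgttgatacCGtctaaactaaggat
intergenic, nearest start site Pcdh15, chr10:72889479-72889508: ttcgattttgaaaaCGtaaactgcaaaaat
The first 8 were higher in KO (KO-high) and the last was lower in KO (KO-low). Apart from the Tet1 CpG, the KO-high CpGs lay in 1 block, 5.03 to 7.02 Mb after the middle of Tet1, and the KO-low CpG lay 10.0 Mb after it.

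The libraries held between 23.2 and 197 M CpG calls. Of the interval's CpGs a library listed between 13976 and 30136. Among the KO and WT libraries, 3 went against their genotype label at the Tet1 CpG. The library labelled KO 30 ppm replicate 1 read 45% there, where the other KO libraries read 69.6% or more. The sample list of the study names this embryo as a HET, against its title. It is kept here under its title as KO. Leaving it out gives 5 KO embryos on 30 ppm and 15 in all. The libraries labelled WT 30 ppm replicate 2 and WT 0.1 ppm replicate 2 read 36% and 40.0%, where the other WT libraries read 7.32% or less. The main results are given with and without these 3 libraries. They were picked by their level at the Tet1 CpG. At measures that include this CpG, leaving them out thus widens the gap between KO and WT by choice. Of the HET libraries, 30 ppm replicate 1 read 8.33% and 0.1 ppm replicate 1 read 69.2%, close to the other WT and the other KO libraries, with 95% Wilson intervals of 2.32 to 25.8% and 42.4 to 87.3%. Both were kept as HET. WT libraries held 28.8 to 197 M calls and KO libraries 25.6 to 47.7 M.

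Large-step CpGs made up a larger share of the CpGs measured in the interval than elsewhere. The choice was made on 3 ppm at CpGs read at least 5 times in all 9 embryos, and the values on that diet are a description. In the interval 9 of 9929 CpGs measured passed 70 points (0.0906%). On the rest of chromosome 10 it was 0 of 49866, and on the other autosomes 41 of 1050185 (0.0039%), of which 9 lay in 1 Mb of chromosome 6. Over all autosomes 0.00441% of CpGs were higher by 70 points or more and 9.01e-05% lower by as much. At a limit of 50 points the interval did not stand out, with 0.171% of its CpGs against 0.106% on the rest of chromosome 10 and 0.171% on the other autosomes. The members just inside the limit of 70 points differed by 74.8 points, and the CpGs just outside it were 62884999 and 62885446 of Tet1 (69.5 and 64.3 points) and 62405400 of Hkdc1 (58.0 points).

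**Figure D1:**
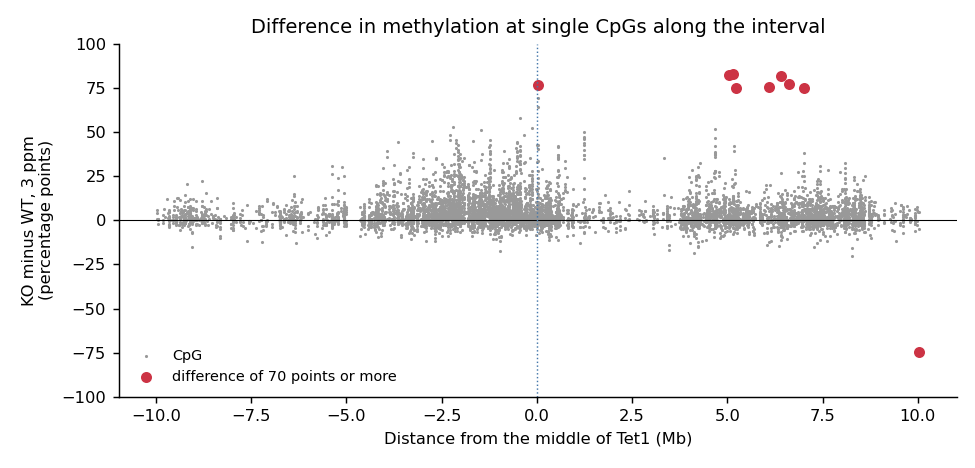
KO minus WT difference in methylation on the 3 ppm diet (y axis, percentage points) at the 9929 CpGs measured in the interval, by distance from the middle of Tet1 (x axis, Mb), with the dotted line at Tet1. The 9 red points differ by 70 points or more, of which 7 lie between 5.03 and 7.02 Mb after Tet1, and the next CpGs below them belong to Tet1 and Hkdc1.

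In the plot along the interval the large-step CpGs of the block stand alone. In the diets that did not choose them, the CpGs within 500 bp of a KO-high CpG had a median KO minus WT difference of 2.84 points on 30 ppm (18 CpGs) and of -0.363 points on 0.1 ppm (16 CpGs), with 1 neighbour at 50 points or more on 30 ppm and none on 0.1 ppm. Around the 41 large-step CpGs of the other autosomes, the same medians were 33.8 points (328 CpGs) and 44 points (345 CpGs). Of the 8 KO-high CpGs, with the Tet1 CpG among them, 6 had a measured neighbour on 30 ppm and 7 on 0.1 ppm. On the other autosomes all 41 had one on both diets, so the interval's KO-high CpGs had fewer measured neighbours each. This is a description, as neighbouring CpGs are not independent.

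At the Tet1 CpG (position 62884019, 4005 bp upstream of the start codon, in an intron), the 9 WT libraries read between 0 and 40.0% with a median of 6.25%. The 10 HET libraries read between 8.33 and 69.2% with a median of 29.3%, and the 16 KO libraries between 45 and 100% with a median of 81.3%. The reads behind a value were few, with 8 to 103 per embryo. KO lay above all WT in every embryo, and HET overlapped both. KO and WT embryos of the control diet chose this CpG, so their separation there is a description. On the other diets the lowest KO value was 45% (9 of 20 reads) and the highest WT value 40.0% (6 of 15 reads). The Wilson intervals of these values, 25.8 to 65.8% and 19.8 to 64.3%, overlapped, so the reads do not separate these embryos.

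At the 7 CpGs of the block the embryos fell into 3 levels. Their mean level was under 10% in 6 embryos, between 20 and 60% in 16 and over 70% in 13, with no embryo between these bands. Of the 9 WT embryos, 5 read 0 to 1.89%, and 4 read 34 to 45%. Of the 10 HET embryos, 9 read 31.6 to 44.4%, and HET 3 ppm replicate 1 read 0%, with 0 of 80 reads methylated (95% Wilson interval 0 to 4.58%). Of the 16 KO embryos, 13 read 81.0 to 97.0%, and 3 read 42.8, 49.0 and 52.7%. The 4 intermediate WT embryos overlapped the 3 intermediate KO embryos, and the other 13 KO embryos lay above all WT. The bands are named by these same levels, and KO and WT embryos of 3 ppm chose the CpGs, so this is a description.

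The intermediate embryos were not only those that went against their label at Tet1. The library labelled KO 30 ppm replicate 1 (52.7%), WT 30 ppm replicate 2 (34%) and WT 0.1 ppm replicate 2 (44%) were intermediate at the Tet1 CpG too. KO 0.1 ppm replicate 2 and KO 30 ppm replicate 3 read 42.8 and 49.0% in the block but 76.9 and 88.9% at the Tet1 CpG. WT 3 ppm replicate 4 and WT 30 ppm replicate 3 read 44.2 and 45% in the block but 0% at the Tet1 CpG, from 10 and 8 reads. HET 3 ppm replicate 1, at 0% in the block, read 33.3% at the Tet1 CpG. HET 30 ppm replicate 1 and HET 0.1 ppm replicate 1 were intermediate in the block (37.3 and 42.6%) but read 8.33 and 69.2% at the Tet1 CpG, from 24 and 13 reads. With Tet1 levels split at 10 and 60%, 7 of the 35 embryos thus stood in 1 band in the block and in another at Tet1. The Tet1 levels come from few reads, and in 5 of the 7 the 95% Wilson interval at Tet1 reached the band of the block, so their band at Tet1 is uncertain. It did not in KO 30 ppm replicate 3 (67.2 to 96.9%) and HET 3 ppm replicate 1 (13.8 to 60.9%).

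**Figure D2:**
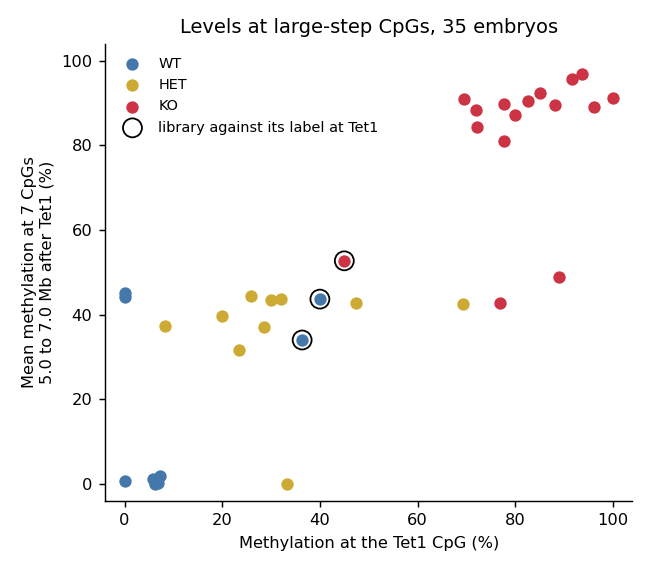
Methylation at the Tet1 CpG (x axis, %) against the mean over the 7 KO-high CpGs of the block (y axis, %), 1 point per embryo, coloured by genotype label, with rings on the 3 KO and WT libraries that went against their label. Block levels fall under 10%, between 31.6 and 52.7%, or at 81.0% and above, and 5 embryos outside the rings have a block level unlike others of their genotype.

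The KO-high CpGs were then tested in embryos that had no part in their choice. On 30 ppm, their mean level was 77% ± 18.9 (SD) in 6 KO and 24.1% ± 20.5 in 3 WT embryos. The difference of 52.5 points had p = 0.0119 by the exact two-sided permutation test, which cannot go lower with these numbers, and an adjusted p of 0.0357 over the 10 tests of this kind. It was 62.6 points without the doubted libraries of this diet (exact p = 0.0476) and 57 points without the library labelled KO 30 ppm replicate 1 alone (exact p = 0.0179). On 0.1 ppm, the levels were 80.7% ± 18.8 in 5 KO and 22% ± 30.0 in 2 WT embryos. This difference of 58.7 points had an exact p = 0.0476, the smallest possible, and did not hold after adjustment (0.0794). Over several diets, differences here and below are taken within diet, so they can depart slightly from the gap between plain group means. Over both diets the difference was 55.6 points (exact p = 0.000567, adjusted 0.00283), and KO was above all WT in 11 of 11 embryos. Without the 3 libraries it was 71.2 points (exact p = 0.00794), and without the library labelled KO 30 ppm replicate 1 alone 58.1 points (exact p = 0.00085). These 3 libraries were picked by their level at the Tet1 CpG, which is part of this mean. On 30 ppm and over both diets, leaving them out thus widens the difference partly by choice and is no independent check.

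At all KO-high CpGs and over the same 2 diets, 7 HET embryos had a mean of 38% ± 5.42. They were below KO by 39 points within diet (exact permutation p = 0.000103, adjusted 0.00103), and by 41.1 points without the library labelled KO 30 ppm replicate 1 (exact p = 0.000189). Against WT they were higher by 17 points, which was not separated from the spread (exact p = 0.0982, adjusted 0.123), and without the 3 libraries by 30.1 points (exact p = 0.0794). Leaving out HET 30 ppm replicate 1 or HET 0.1 ppm replicate 1 gave 17.3 or 16.1 points (exact p = 0.124 and 0.399). Leaving out WT 0.1 ppm replicate 1 or replicate 2 moved the HET against WT difference to 6.40 or 27.6 points.

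The KO-low CpG (position 72889493, between genes, with the start site of Pcdh15 at 209848 bp) ran the other way. WT embryos read between 47.8 and 100% with a median of 87.7%, HET between 18.8 and 100% with a median of 64.0%, and KO between 0 and 64.3% with a median of 8.33%. Over the 30 and 0.1 ppm diets, KO was lower by 46.4 points (exact permutation p = 0.0143, adjusted 0.0357), with 7 of 10 KO embryos below all WT. The difference was -61.3 points without the 3 libraries (exact permutation p = 0.0333) and -47.9 points without the library labelled KO 30 ppm replicate 1 alone (exact p = 0.0127). Within the 30 ppm diet (-48.9 points, exact p = 0.0714) and the 0.1 ppm diet (-43.9 points, exact p = 0.267) it was not separated, although the exact test on 0.1 ppm could not go below 0.0667. Without the 3 libraries 1 WT embryo with a value was left on each diet, and the differences of -57.6 and -65 points had the smallest exact p possible (0.167 and 0.2), so these settings do not test them. KO 0.1 ppm replicate 1 and WT 30 ppm replicate 3 had fewer than 5 reads there and were not used.

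Likeness to the block across embryos was measured as the root mean square gap between a CpG's levels and the block mean over at least 28 embryos, among 1436104 autosomal CpGs. Under 15 points, a limit set after the values were seen, 2 more CpGs were found, and both lay in the interval, at 66491911 (between genes, 10.2 points over 30 embryos) and 67993630 (Rtkn2, 11.7 points over 31 embryos). None lay elsewhere on chromosome 10 or on other autosomes. The pattern of the Tet1 CpG was matched as closely by 64 CpGs, all on other autosomes. At a looser limit of 20 points little of this contrast was left. Of 13083 CpGs examined in the interval 9 were like the block, with 30 elsewhere on chromosome 10 and 669 on other autosomes. The counts like the Tet1 CpG were 9, 61 and 1561.

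The presence of CpG calls also varied by genotype label in the block. A CpG counted as present in a library that listed it, which in these tables takes at least 2 reads. Of 1041180 autosomal CpGs tested over the 25 KO and WT embryos, none passed Fisher's exact test after adjustment (0.0% called, smallest adjusted p of 1), so the following counts at unadjusted p describe the data. In the interval, 168 of 10834 CpGs (1.55%) were listed more often in KO and 354 (3.27%) more often in WT at an unadjusted p under 0.05. On the other autosomes these shares were 0.0581% and 2.47%, and on the rest of chromosome 10 they were 0.224% and 2.19%. The larger share listed more often in WT was thus seen across the genome, where WT libraries were the deeper ones, and the part of depth in it was not tested. Of the 168 CpGs listed more often in KO, 92 lay 5 to 6 Mb after Tet1 (13.6% of the 674 tested) and 62 lay 6 to 7 Mb after it (8.03% of 772). The other 18 bins of 1 Mb held at most 6 each. Neighbouring CpGs share reads, so the CpGs counted here are not independent of each other.

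Among the 27 autosomal CpGs with an unadjusted Fisher p under 0.0001, 14 lay in the interval, and all 8 that were listed more often in KO were among them. The 14 all lay in the stretches 68243724-68243780, 68273348-68273379, 69212012-69212115 and 69236089-69236274, and the 8 in the first and last of these. Neighbouring CpGs were thus counted apart although they share reads. The counts of CpGs also moved with single libraries. Leaving out 1 of the 25 embryos gave 7 to 46 CpGs over all autosomes and 6 to 15 in the interval. In the interval 14 and 15 were left without WT 3 ppm replicate 4 and without the library labelled WT 30 ppm replicate 2, and 6 to 9 without any other embryo. Leaving out the 3 libraries gave 58 CpGs, of which 30 lay in the interval, and with 5 reads asked of a listed CpG it was 20 and 4. The 5 CpGs with the smallest p, at most 1 per gene, lay in or near Arid5b (a DNA-binding regulator of transcription), Rhobtb1, Rtkn2, Zfp365 and Ank3 (ankyrin-G, which anchors channels at the axon initial segment). In an intron of Arid5b, 68273348 was listed in 2 of 16 KO, 9 of 10 HET and 9 of 9 WT embryos (Fisher's exact p = 2.69e-05). At the promoter of Rhobtb1 and A930033H14Rik, 69212012 was listed in 2 of 16 KO, 7 of 10 HET and 9 of 9 WT embryos (2.69e-05). Near Rtkn2, 68068607 was listed in 13 of 16 KO, 7 of 10 HET and 0 of 9 WT embryos (0.000108). In an intron of Ank3, 69732726 was listed in 2 of 16 KO, 9 of 10 HET and 8 of 9 WT embryos (0.000335). In a UTR of Zfp365, 67888013 was listed in 4 of 16 KO, 10 of 10 HET and 9 of 9 WT embryos (0.000458). Their median depth where listed was 5 to 19 reads, so a call can be lost by chance in a shallow library. The adjusted p was 1 for each of them.

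The 68 CpGs of the interval with an unadjusted p under 0.001 fell into 34 places when CpGs up to 300 bp apart were joined, 17 listed more often in KO and 17 more often in WT. These limits were set after the values were seen, and the share over all autosomes at this p is not given here. A place of the first kind near Rtkn2 is shown with the fragment that the reference predicts around it, where capitals mark CpGs and the cut sites CCGG and TCGA.
chr10:68068463-68068738: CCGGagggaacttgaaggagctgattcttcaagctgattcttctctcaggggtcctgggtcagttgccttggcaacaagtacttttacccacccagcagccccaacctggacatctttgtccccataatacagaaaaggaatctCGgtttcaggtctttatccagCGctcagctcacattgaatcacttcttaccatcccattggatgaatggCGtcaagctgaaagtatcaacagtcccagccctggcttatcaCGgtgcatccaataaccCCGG
A place in Arid5b listed more often in WT is shown from the cut site before it. The sequence printed holds no other cut site.
chr10:68273314-68273399: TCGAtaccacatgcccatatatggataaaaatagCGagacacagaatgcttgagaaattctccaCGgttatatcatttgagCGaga
In the reference, the distance between the cut sites to either side had a median of 184 bp (92 to 397 bp) at the 17 places listed more often in KO. At the 17 places listed more often in WT it had a median of 662 bp (23 to 4280 bp), and 13 exceeded 500 bp, the largest insert that the study's alignment allowed. None of the places listed more often in KO exceeded it. These distances were not taken at places outside the interval. On the other autosomes too, more CpGs were listed more often in WT (2.47%) than in KO (0.0581%) at an unadjusted Fisher p under 0.05. The contrast in length thus describes these places alone, and the part of library depth in it was not tested.

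Counted per embryo, these places followed the level of the block. In the 6 embryos with a block level under 10%, none of the 17 places listed more often in KO was present, and 15 to 17 of the places listed more often in WT were. In the 16 intermediate embryos, 5 to 17 of the first (median 14.5) and 11 to 17 of the second (median 14) were present. In the 13 embryos over 70%, 15 to 17 of the first were present. The places listed more often in WT were absent in 11 of these 13, while KO 0.1 ppm replicate 3 held 1 and KO 30 ppm replicate 5 held 10. KO and WT labels chose these places, so only the HET embryos are free of the choice. HET 3 ppm replicate 1, the embryo with 0% in the block, held 0 and 15, and the other 9 HET embryos held 12 to 17 and 12 to 15.

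**Figure D3:**
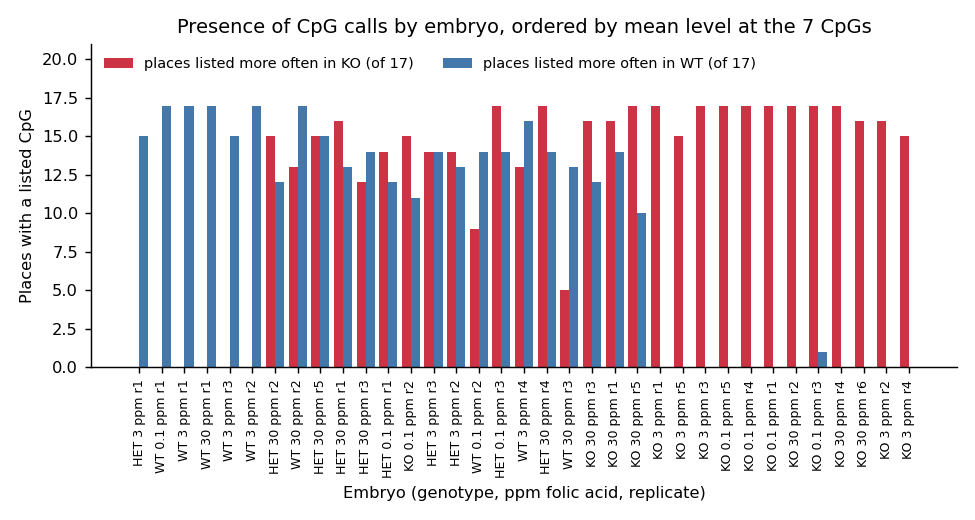
Number of places with a listed CpG in each of the 35 embryos (y axis), for the 17 places listed more often in KO (red) and the 17 listed more often in WT (blue), with embryos (x axis) ordered by their mean level at the 7 CpGs of the block. The first 6 embryos have blue bars alone, the next 16 have both, and the last 13 have red bars of 15 to 17.

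By tiles, the interval had calls higher in KO at shares close to those of all autosomes. Tiles of 1 kb were tested where at least 3 CpGs were read at least 5 times in every embryo, in a quasi-binomial model fitted over all autosomal tiles, and a call took 10 points or more with an adjusted p below 0.05. On 30 ppm, 39 of 746 tiles of the interval were higher in KO (5.23%), against 5.66% of all tiles. On 3 ppm, 108 of 705 were higher (15.3%), against 16.3%. On 0.1 ppm, 76 of 742 were higher (10.2%), against 11.2%. With diet as a covariate over all embryos, 70 of 569 were higher (12.3%), against 14.2%. The median difference over the interval's tiles was 2.33, 3.90, 3.91 and 3.11 points in these 4 fits, and 2.49, 3.76, 3.85 and 2.95 points over all tiles. These shares lay near the background, slightly below it in each of the 4 fits.

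Without the 3 libraries, 111 tiles were higher on 30 ppm (15%, against 15.9% of all tiles), 113 on 0.1 ppm (14.6%, against 13.4%) and 102 in the fit over all diets (17.8%, against 18.3%). On 0.1 ppm this left 1 WT embryo, with the spread taken from the KO embryos, so nothing is read from its share. The counts on single diets rested on few WT embryos. On 30 ppm no tile was left without WT replicate 1 (0.0246% of all tiles were called), 62 were called without the library labelled WT replicate 2 (8.24%, against 9.09%), and 79 without the library labelled KO replicate 1 (10.8%, against 11.8% of all tiles). Leaving out KO replicate 2, 3, 5 or 6 gave 17 to 25 tiles (2.24 to 3.33%, against 2.68 to 3.47%). Leaving out KO replicate 4 or WT replicate 3 gave 26 each (3.47 and 2.85%), slightly above the 3.31 and 2.68% of all tiles. On 0.1 ppm, 29 were called without WT replicate 1 (3.86%, against 4.95%) and 113 without the library labelled WT replicate 2, each with 1 WT embryo left. With the litter as a block, 45 tiles were called on 0.1 ppm (6.06%, against 7.54% of all tiles), and the counts of the other fits moved by less than 1.5 times.

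Tiles lower in KO were rare. The interval held 1 on 3 ppm, in an intron of Reep3 (a protein that shapes the endoplasmic reticulum) at chr10:67083001-67084000, with 65.1% ± 8.97 in KO and 78.8% ± 2.46 in WT (-13.8 points, adjusted p = 0.0043 by the quasi-binomial test). Lower tiles made up 0.0246% of all tiles on that diet. On 30 ppm, 0.1 ppm and all diets none was called in the interval, with 2, 3 and 3 at an unadjusted p under 0.05, against 0.00306%, 0.0173% and 0.00189% called over all tiles.

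The called tiles were not spread evenly along the interval. In the fit over all diets, 39 of 186 tiles lying 1 to 5 Mb before Tet1 were higher in KO (21%, median difference 4.87 points), and 16 of 111 within 1 Mb of the gene (14.4%, median 4.2 points). Farther out the shares were lower, at 5 of 75 tiles 1 to 5 Mb after it (6.67%), 8 of 146 beyond 5 Mb after it (5.48%) and 2 of 51 beyond 5 Mb before it (3.92%). The segment that holds the block of large-step CpGs was thus below the 14.2% of all tiles. On each single diet the segment 1 to 5 Mb before Tet1 again had the largest share.

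**Figure D4:**
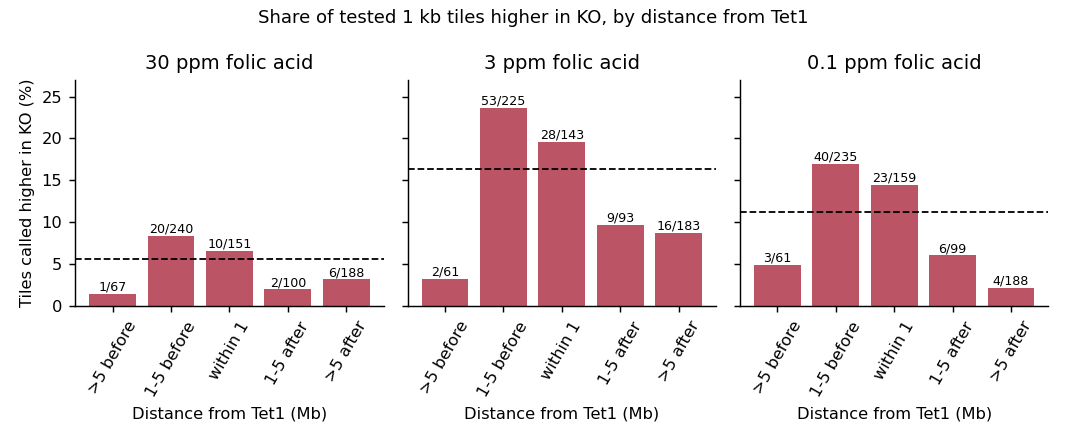
Share of tested 1 kb tiles called higher in KO than in WT (y axis, %) on each diet, in 5 segments by distance from Tet1 (x axis, Mb), with called and tested tiles written above each bar. The dashed line is the share over all autosomal tiles (5.66, 16.3 and 11.2%), which only the segments 1 to 5 Mb before Tet1 and within 1 Mb of it exceed.

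By annotation, between 4 of 51 promoter tiles (7.84%) and 6 of 34 tiles in noncoding exons (17.6%) were called, against 14.2% of all autosomal tiles of any annotation, and introns held the most (33 of 211, 15.6%). Of 505 tiles tested on every diet, 24 were called higher on all 3 (4.75%), against 5.72% of all autosomal tiles.

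Single CpGs gave a like picture. On 30 ppm, 217 of 6728 CpGs of the interval were called higher in KO (3.23%), against 3.6% of all CpGs. On 3 ppm it was 548 of 6620 (8.28%), against 9.68%, and on 0.1 ppm 225 of 6955 (3.24%), against 3.97%. Without the SD filter no CpG was called on 30 or 0.1 ppm, in the interval or on all autosomes. On 3 ppm 97 of the interval's CpGs were then called (0.977%, against 1.25% of all CpGs). All CpGs of a fit shared 1 dispersion, and with the litter as a block no CpG was called on any diet, in the interval or on all autosomes. On 0.1 ppm the same held without WT replicate 1 or without the library labelled WT replicate 2. On 30 ppm 37 were called without WT replicate 1 (0.537%, against 0.678% of all CpGs) and 340 without the library labelled KO replicate 1 (5%, against 5.74%). Lower CpGs numbered 2 on 30 ppm, both in introns of Col13a1 (61881548, -20.7 points, and 61896063, -12.7 points), and 3 on 3 ppm. The latter were the KO-low CpG, which that diet chose, 67083833 in Reep3 (-14.8 points) and 66334275 between genes (-16.6 points). On 0.1 ppm none was called lower, with 99 at an unadjusted p under 0.05. Over all CpGs, 0.0149%, 0.0356% and 0.0123% were lower on 30, 3 and 0.1 ppm.

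Within Tet1, the called tiles lay upstream of the coding sequence. The tile chr10:62884001-62885000, in an intron, had the largest difference of the interval's called tiles in the fit over all diets. WT embryos read 19.8 to 59.7% there (median 34.4%), HET 42.2 to 75.6%, and KO 60.3 to 98.1% (median 89.5%), from 29 to 369 reads each. KO was above WT in 16 of 16 embryos by 49.0 points (adjusted p = 2.6e-10), and the difference was 39.2, 60.5 and 47.5 points on 30, 3 and 0.1 ppm. Without the 3 libraries it was 55.4 points. This tile holds the Tet1 CpG by which they were picked, so that rise is no independent check. The adjoining tile chr10:62885001-62886000 had 72.2% ± 9.07 in KO, 45.5% ± 4.12 in HET and 39.8% ± 11.3 in WT (32.2 points, adjusted p = 9.9e-09).

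A promoter tile, chr10:62886001-62887000, was nearly unmethylated in both genotypes, with 3.56% ± 2.62 in KO and 1.01% ± 0.558 in WT. The difference of 2.67 points fell short of the 10 points asked of a call (adjusted p = 0.002 by the quasi-binomial test). The other 4 tiles were nearly fully methylated. Among them chr10:62879001-62880000 is also a promoter tile by annotation (96.0% in KO and 91.8% in WT). At chr10:62878001-62879000 and chr10:62879001-62880000 KO exceeded WT by 5.50 and 4.12 points, short of a call. At chr10:62839001-62840000 and chr10:62827001-62828000 the differences were 0.467 and -0.579 points and did not pass the test (adjusted p = 0.57 and 0.81), and the sign of the last turned without the 3 libraries.

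Of 151 Tet1 CpGs measured on any diet, 13 of 116 were called higher in KO on 30 ppm, 15 of 118 on 3 ppm and 12 of 131 on 0.1 ppm, with none lower. Over all CpGs tested, 3.6%, 9.68% and 3.97% were called higher on these diets. The Tet1 counts are out of CpGs measured and these shares out of CpGs tested, so they do not rest on the same base. None of the calls held with the litter as a block, nor on 30 and 0.1 ppm without the SD filter. The medians over the Tet1 CpGs were 1.28, 2.43 and 3.33 points. Examples among those with a gain on every diet, picked after their values were seen, differed in the place that HET took. KO and WT are given on 3 ppm and HET over all diets, and the place of HET was not tested. At 62885446 the mean was 93.3% in KO and 28.9% in WT on 3 ppm, and 61.2% over the 10 HET embryos. At 62885927 KO had 44.8% and WT 2.35% on 3 ppm, and HET 8.65%. At 62866302, by an annotated start site inside the gene, KO had 49.1% and WT 6.27% on 3 ppm, and HET 14.9%.

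Other genes of the interval carried tiles that gained 24 to 31 points in KO. At the promoter of Hk1, which encodes the hexokinase that starts glycolysis (chr10:62327001-62328000), WT read 21.5 to 56.2% (median 34.8%), HET 45.1 to 63.3% and KO 33.3 to 77.8% (median 72.8%). KO was above all WT in 15 of 16 embryos, and the difference was 31.1 points (adjusted p = 1.0e-08). This was also 1 of the 2 tiles of the interval called between HET and WT (15.8 points, adjusted p = 0.0201). At Hkdc1, a related hexokinase gene next to it (exon, chr10:62405001-62406000), KO read 80.9% ± 6.33, HET 63.9% ± 7.12 and WT 54.4% ± 5.99, from 20 CpGs (26 points, adjusted p = 1.2e-10).

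Egr2 encodes a zinc finger factor of the segmented hindbrain and of Schwann cells. Its UTR tile (chr10:67540001-67541000, 13 CpGs) read 6.15 to 16.3% in WT (median 13.6%), 7.95 to 32.2% in HET and 12.8 to 60.5% in KO (median 46.1%). The difference was 30.7 points (adjusted p = 1.3e-09), and 15 of 16 KO embryos were above all WT. An exon tile shared by Ctnna3, an alpha-catenin gene, and Lrrtm3, a synaptic adhesion gene in it (chr10:64088001-64089000), had 46.5% ± 11.1 in KO, 20.1% ± 5.54 in HET and 19.3% ± 5.41 in WT (27 points, adjusted p = 3.3e-08). HET and WT were not separated there (-0.69 points within diet, although the plain mean of HET was the higher, adjusted p = 0.963).

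The other 5 of the 10 leading tiles lay in Mcu, the pore of the mitochondrial calcium uniporter (27.7 points), Adamts14, a procollagen peptidase (27.5), Slc29a3, a nucleoside transporter of lysosomes and mitochondria (25.6), Spock2, a proteoglycan of the matrix (24.8), and between genes near Rhobtb1 (24.1). The last holds a large-step CpG, 68962809, among its 3 CpGs. In 8 of the 10 tiles 15 of 16 KO embryos were above all WT. In Mcu it was 11, and in the Tet1 tile 16. The library labelled KO 30 ppm replicate 1 was the lowest KO value in every one of these tiles. All 10 stayed called without the 3 libraries and with the litter as a block.

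**Figure D5:**
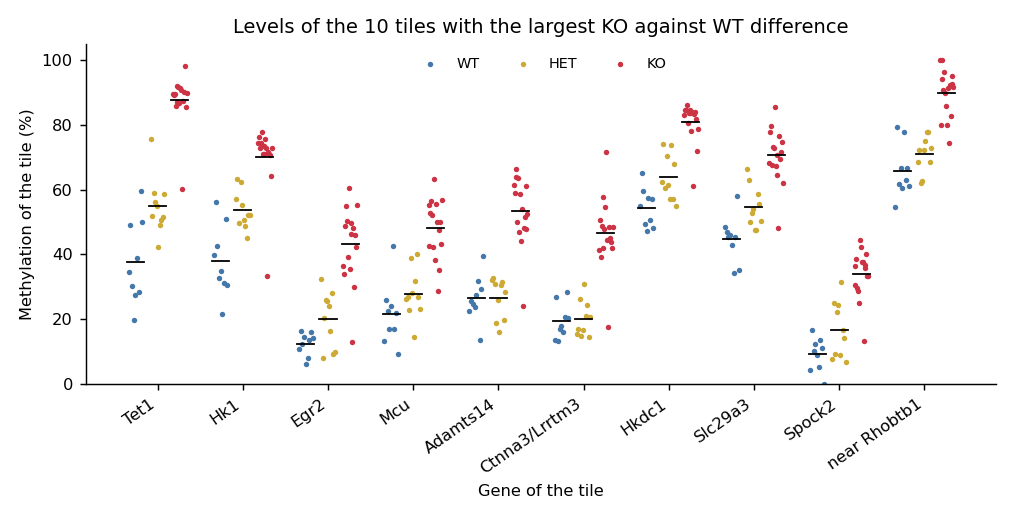
Methylation (y axis, %) of the 10 tiles with the largest KO minus WT difference, named by gene (x axis), with 1 point per embryo and a line at the mean of each genotype. The KO minus WT differences within diet run from 24.1 to 49.0 points, and the single low KO point in most tiles is the library labelled KO 30 ppm replicate 1.

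Genes of the interval were also read by group, with counts from the fit over all diets beside the 14.2% of all tiles and their median of 2.95 points. Of the neural development genes, 9 had a tested tile, and 7 of these had at least 1 called higher: Nodal, Unc5b, Cdh23, Egr2, Ank3, Lrrtm3 and Ctnna3. Of their 101 tiles, 18 were called (17.8%), with a median of 4.46 points. Nodal, a TGF-beta ligand of the early embryo, had 83.7% ± 4.37 in KO and 68.0% ± 3.46 in WT at its exon tile (15.9 points). Unc5b, a netrin receptor, gained 17.6 points and Cdh23, a cadherin of hair cells, 18.5 points at their leading tiles, and Ank3 21.5 points at 1 of its 31 tiles. The promoter of Neurog3, a proneural factor, had 6.63% ± 1.90 in KO and 1.68% ± 0.814 in WT, a small difference (5.01 points, adjusted p = 5.9e-09) that fell short of a call.

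Of the genes of mitochondria and metabolism, 10 had a tested tile and 5 a called one, among them Hk1, Hkdc1, Mcu and Slc29a3. Of their 41 tiles, 9 were called (22%), while the median was 2.48 points. At the promoter of Ddit4, an inhibitor of mTOR signalling, KO had 10.9% ± 5.2 and WT 3.02% ± 1.59 (7.86 points, not called). Among genes of chromatin and transcription, 2 of 6 had a called tile, Tet1 and the demethylase-related Jmjd1c (13.9 points), and 3 of 26 tiles were called (11.5%, median 2.73 points). Arid5b, Sirt1, H2afy2 and Zfp365 had none, with leading differences of 8.29, 5.58, 2.83 and 2.49 points. Of the cell cycle genes Cdk1, Mcm9 and Dna2, none of 7 tiles was called (median 1.70 points).

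Between HET and WT few tiles were called. Of 618 tiles of the interval 2 were higher in HET (0.324%), against 0.259% of all tiles, and 89 at an unadjusted p under 0.05. They were the Hk1 promoter and an exon tile of Unc5b (chr10:60780001-60781000, 76.2% ± 4.88 in HET and 65.2% ± 6.03 in WT, 10.5 points, adjusted p = 0.0179). None was lower, with 2 at an unadjusted p under 0.05 and 0.0% of all tiles called lower. Without the 3 libraries 13 tiles were higher, which made up 2.05% of the interval's tiles, against 1.96% of all tiles. None was left without HET 3 ppm replicate 2 or 3, WT 30 ppm replicate 1 or WT 0.1 ppm replicate 1, and 1 without HET 30 ppm replicate 5. Leaving out the library labelled WT 0.1 ppm replicate 2 gave 5 (0.796%, against 0.677%), and leaving out that labelled WT 30 ppm replicate 2 gave 6 (0.971%, against 0.905%).

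Averaged over its 8000 CpGs, the interval had a mean of 39.8% ± 0.505 in 9 WT, 40.6% ± 0.414 in 10 HET and 42.3% ± 0.783 in 16 KO embryos. KO exceeded WT by 2.52 points (permutation p = 2e-05, adjusted 0.00018 over 18 comparisons), with 15 of 16 KO embryos above all WT. The difference was 2.67 points without the library labelled KO 30 ppm replicate 1 (permutation p = 1e-05). By diet the difference was 1.82 points on 30 ppm (exact p = 0.0357, adjusted 0.0714), 2.92 points on 3 ppm (exact p = 0.00794, the smallest possible, adjusted 0.0238) and 2.81 points on 0.1 ppm (exact p = 0.0476, the smallest possible, adjusted 0.0779). HET exceeded WT by 0.876 points (permutation p = 0.00256, adjusted 0.0115), with 3 of 10 HET embryos above all WT. By diet this was 0.353 points on 30 ppm (exact p = 0.375, adjusted 0.422), 1.13 points on 3 ppm (exact p = 0.0286, the smallest possible, adjusted 0.0643) and 1.15 points on 0.1 ppm (exact p = 0.333, the smallest possible, adjusted 0.4). It was 0.904 points without HET 30 ppm replicate 1 and 0.953 points without HET 0.1 ppm replicate 1 (permutation p = 0.00192 and 0.00753). Over all diets, KO exceeded HET by 1.64 points (p = 1e-05 by permutation, the lowest value that 100000 resamples allow, adjusted 0.00018).

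Set against the mean over all other autosomal CpGs of the same embryo, the differences were smaller. KO minus WT in the interval exceeded that in the rest by 0.193 points (permutation p = 0.0013, adjusted 0.0078), and HET minus WT by 0.189 points (p = 0.00347, adjusted 0.0125, by permutation). The p-values of this measure reflect the spread over embryos for a fixed set of CpGs. How far other stretches of this length depart from the rest was not tested. The HET minus WT excess by diet was 0.0796, 0.208 and 0.279 points on 30, 3 and 0.1 ppm (exact p = 0.25, 0.0571 and 0.333, the last the smallest possible). By diet the KO minus WT excess was 0.0964 points on 30 ppm (exact p = 0.405, adjusted 0.429), and there 0.155 points without the library labelled KO 30 ppm replicate 1 (exact p = 0.0357, unadjusted). It was 0.204 points on 3 ppm (exact p = 0.0159, adjusted 0.0408) and 0.28 points on 0.1 ppm (exact p = 0.0476, the smallest possible, adjusted 0.0779). KO and HET were not separated in this measure (0.00464 points, permutation p = 0.903). Without the large-step CpGs and the CpGs within 1 Mb of Tet1, 6321 CpGs were left, and the KO minus WT excess was -0.0464 points (permutation p = 0.304). In that setting the HET minus WT excess was 0.122 points (permutation p = 0.0215) and KO lay below HET, at -0.169 points (permutation p = 0.00035). With 5 Mb instead of 10 Mb on each side the KO minus WT excess was larger, at 0.698 points over all diets (permutation p = 2e-05), 0.481 points on 30 ppm, 0.752 points on 3 ppm and 0.862 points on 0.1 ppm (exact p = 0.0476, 0.00794 and 0.0476). KO then exceeded HET by 0.41 points (permutation p = 4e-05). With the 10 Mb flanks, the KO minus WT excess was 0.275 points without the 3 libraries (permutation p = 0.00026) and 0.213 points without the library labelled KO 30 ppm replicate 1 alone (permutation p = 3e-05).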

How the data were processed

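Methylation of single E11.5 mouse brains was measured by oxidative bisulfite RRBS. The authors trimmed reads with Trim Galore 0.6.10, aligned them to mm10 with Bismark 0.24.1 (inserts up to 500 bp) and removed duplicates by molecular identifiers with UMI-tools. The deposited tables give, per CpG, the fraction of methylated reads as the authors made it and the count of reads covering it, from 2 reads upward. How both strands were merged is not given in the sources used here. The fraction times the count gave methylated reads as whole numbers. All 196844 listed CpG positions of chromosome 10 fell on CG in GRCm38.p6. The authors' lists of differential regions were not used here.

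Tiles of 1 kb (at least 3 CpGs read 5 times or more in every embryo, SD of at least 2 points) and single CpGs were fitted over all autosomes by a quasi-binomial logistic F test. Its dispersion was moderated by the method of limma's squeezeVar, with 1 as the lower limit, and p-values were adjusted by Benjamini-Hochberg over all features of a fit. Presence was tested by two-sided Fisher's exact test at CpGs listed in 6 to 19 of 25 embryos. Means per embryo were compared by two-sided permutation of genotype within diet on the absolute difference, exact except for interval means over all diets (100000 resamples). Precision is limited by reads per CpG, and Wilson intervals (95%) cover counting error only. Embryos were treated as independent, although litters were shared. Litter numbers come from the titles, and KO embryos had been matched to WT or HET littermates. Litter as a block was thus an alternative in the tile and CpG fits. The permutation tests kept diet but not litter. Other alternatives were 10 reads, 20 points, no SD filter, other limits for large-step CpGs and for the interval, leaving out the 3 KO and WT libraries that went against their label, and leaving out each embryo. Replicate numbers follow the order of samples and only name them.

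The members, gene groups and tests were chosen with earlier results of these data known. By rule, the text names the tested Tet1 tiles, the 10 called tiles with the largest difference over all diets (1 per gene), lower tiles, large-step CpGs (1 per gene), the 5 CpGs with the smallest presence p, and members of the gene groups with a tested tile. The second Ank3 CpG, lower CpGs and examples of Tet1 CpGs and of HET calls were added after their values were seen. Pcdh15, of the neural group, lies outside the interval, and Fabp7, Atoh7, Slc35f1, Asf1a, Hsf2, Ccar1, Slc25a16, Supv3l1, Sgpl1 and Zwint had no tested tile. Genes and promoters (1000 bp to either side of a start) are from GENCODE vM21, and positions count from 1. The values of 1 gene of the groups are not reported here. The tests were checked on simulated data. Python 3.11.15, NumPy 2.4.6, pandas 2.3.3 and SciPy 1.17.1 were used.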

Additional observations from a re-analysis of the deposited data

Results flagged for a closer look

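In groups of 4 to 10 embryos, 25 groups were tested for a value far from the rest, where chance marks about 1 in 20 groups. The block of 7 KO-high CpGs stood apart in KO 0.1 ppm replicate 2, at 42.8% where the other KO embryos of that diet read 89.2% or more. It also stood apart in WT 3 ppm replicate 4, at 44.2% where the other WT embryos of that diet read 1.89% or less. At the KO-low CpG, KO 3 ppm replicate 2 read 53.3% where the other KO embryos of that diet read 8.33% or less. The interval mean of the library labelled KO 30 ppm replicate 1 was 39.6%, below the 42% or more of the other KO embryos of that diet. What these embryos carry in the interval was not tested.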

How the results depend on the processing

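Tile counts called higher in KO changed by over 1.5 times with a minimum of 20 points (17 on 30 ppm, 35 on 3 ppm, 31 on 0.1 ppm, 18 over all diets, and 0 for HET against WT, with shares of 2.28, 4.96, 4.18 and 3.16% in the KO fits against 2.05, 5.5, 4.36 and 3.86% of all tiles), with 10 reads (71 on 3 ppm, 40 over all diets, with fewer tiles tested, so that the shares were 17.8 and 13.9%, against 18.5 and 16.4% of all tiles) and without the 3 KO and WT libraries that went against their label (111 on 30 ppm, 13 for HET against WT). With the litter as a replicate block they fell to 45 tiles on 0.1 ppm, and CpG counts fell to 0 on each diet, as over all autosomes; the block changed no other count by as much. The interval's share lay above that of all tiles with 20 points on 30 ppm and without the SD filter on 30 ppm (3.7 against 3.53%) and 3 ppm (11.8 against 11.4%). On 30 ppm it also did without KO replicate 4 (3.47 against 3.31%) or WT replicate 3 (2.85 against 2.68%). Fits on 0.1 ppm with 1 WT embryo left are not read here. CpG counts were 135 on 30 ppm and 317 on 3 ppm with 20 points, 0, 97 and 0 on 30, 3 and 0.1 ppm without the SD filter, and 399 on 30 ppm and 0 on 0.1 ppm without the 3 libraries. In these settings the interval's share of called CpGs was below that of all CpGs, or both were 0. Large-step CpGs numbered 17 at 50 points, 3 at 80 points and 4 with 10 reads. The 0.1 ppm difference at KO-high CpGs was 79.9 points without the 3 libraries, 55.9 at 80 points and, in a setting added after the data were seen, 58.7 outside Tet1 (exact p = 0.167, which is the smallest possible with 1 WT embryo, 0.0952 and 0.0952). For the interval mean less the rest, 10 reads gave 0.289 points for HET against WT on 3 ppm and -0.00857 for KO against HET. Leaving out the large-step CpGs and 1 Mb around Tet1 gave -0.0632, -0.0793, 0.00337 and -0.0464 for KO against WT on 30, 3, 0.1 ppm and all diets, and -0.169 for KO against HET (permutation p = 0.00035). A 5 Mb flank gave 0.698, 0.481, 0.752 and 0.862 for KO against WT on all diets, 30, 3 and 0.1 ppm, 0.352 for HET against WT on 3 ppm and 0.41 for KO against HET. Without the 3 libraries, 1 WT embryo was left on 0.1 ppm, and the interval mean differed by 3.38 and its excess by 0.446 points there (smallest exact p 0.167). The tile 62827001 (Tet1) moved from -0.579 to 0.236 points without the 3 libraries. The causes of these changes were not tested.

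Leaving out 1 embryo at a time gave 0 to 79 tiles on 30 ppm, 29 to 113 on 0.1 ppm and 0 to 6 for HET against WT, and 37 to 340 CpGs on 30 ppm and 0 to 208 on 0.1 ppm. At KO-high CpGs the differences ranged from 6.40 to 27.6 points for HET against WT and from 37.5 to 79.9 points for KO against WT on 0.1 ppm. At the KO-low CpG they ranged from -19.8 to 4.35 points for HET against WT, which turned in sign without HET 0.1 ppm replicate 3, and from -50.8 to -26.6 points for KO against HET. For the interval mean they ranged from 0.917 to 1.27 points for HET against WT on 3 ppm, from 1.48 to 2.26 for KO against WT on 30 ppm and from 2.25 to 3.38 on 0.1 ppm. For its excess over the rest they ranged from 0.133 to 0.244 points for HET against WT, from -0.0315 to 0.0407 for KO against HET, from 0.0254 to 0.155 for KO against WT on 30 ppm (the last, without KO replicate 1, with exact p = 0.0357) and from 0.113 to 0.446 on 0.1 ppm. For the tile 62827001 (Tet1) they ranged from -1.50 to 0.359 points. The 2 WT embryos on 0.1 ppm set most of these ranges on that diet. A CpG with few reads can drop out of a shallow library, which limits the presence counts.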
